A study of Homo sapiens with 12 samples.

Results

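The genes of the mitochondrial genome were examined in RNA sequencing of 3 human breast cell lines before and after cells passed a capillary-sized constriction. The members were all genes placed on chromosome MT in any of the 3 tables of listed genes, one table for each cell line. They numbered 10 of the 3090 genes listed, namely 7 transfer RNA (tRNA) genes, 2 protein-coding (mRNA) genes and 1 ribosomal RNA (rRNA) gene. Because some were listed for more than one cell line, they gave 13 combinations of gene and cell line, 6 of them for MCF-10A, 5 for MDA-MB-231 and 2 for the LM2 line.

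MDA-MB-231 is a line of triple negative breast cancer, LM2 is its lung-metastatic derivative, and MCF-10A is an immortalised, non-malignant line of breast epithelium. For each line, 2 libraries were made from cells that had been drawn at 7 to 33 cmH2O through channels with a cross-section of 5 by 5 µm and a length of 150 µm, and 2 from control cells that had not entered a channel. Cells from several chips were pooled for each constriction sample, all cultures were kept at reduced oxygen, and the methods name MCF-10A cells with a tag on PCNA in one place and cells from ATCC in another, without saying which were sequenced. The paper lists less total RNA for each constriction sample than for its control in MDA-MB-231 and LM2. In MCF-10A the direction differed between the replicates. The part of RNA amount and of handling in the chips in the differences after transit was not tested. Libraries were enriched for polyadenylated RNA, and the 12 libraries held 29978695 to 53584754 reads.

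The tables hold only genes that differed between constriction and control in the authors' own comparison before adjustment, so that every member listed was chosen on the same libraries that are described here. The tests below are therefore a description of these libraries and not independent evidence of a difference, and a mitochondrial gene outside a table was not analysed in that line. Of 11 epithelial and mesenchymal markers, KRT19 alone was listed, in MCF-10A, so the identity of the lines could not be checked. The 2 constriction libraries of MCF-10A stood apart from the others, with 2489 and 2478 of the 2680 listed genes at 0 reads. The MCF-10A controls had 29 and 32 at 0. The libraries of MDA-MB-231 had 33 to 88 of 381 listed genes at 0, and those of LM2 15 to 33 of 97.

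Mitochondrial DNA is transcribed as long RNAs that span many genes. In most places tRNAs sit between the coding sequences, and their removal by RNase P at the front end and by ELAC2 at the back end releases the mRNAs and rRNAs. Mitochondrial mRNAs then receive a short poly(A) tail from the polymerase MTPAP, whereas tRNAs receive the bases CCA from TRNT1. All of the encoded proteins are subunits of the oxidative phosphorylation complexes, and the tRNAs and rRNAs serve the mitochondrial ribosomes that make them.

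The annotation (GENCODE release 29 of GRCh38) has 37 genes on this chromosome, of which 13 are mRNA, 22 tRNA and 2 rRNA genes. The deposited positions of all 10 members were the same as in this annotation. Listed genes made up 7 of the 22 tRNA genes and 2 of the 13 mRNA genes. The 2 mRNA genes, MT-ATP8 with 207 bases and MT-ND4L with 297 bases, were the shortest of the 13. Each is the first reading frame of a transcript that carries 2 overlapping frames. MT-ATP8 (MT:8366-8572, plus strand) shares its last 46 bases with MT-ATP6, and MT-ND4L (MT:10470-10766, plus strand) shares its last 7 bases with MT-ND4. Neither partner was listed in any table. The methods do not say how reads that overlap 2 genes were counted, so that values of both mRNAs refer to reads that may have been assigned in part to the neighbour.

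The listed tRNA genes were 66 to 72 bases long, which is shorter than a single read of the sequencing run. They are given here as DNA of the gene's own strand, from the GENCODE transcripts, because their length and their place beside coding genes bear on which reads can be counted for them. Capitals mark the anticodon.
MT-TT: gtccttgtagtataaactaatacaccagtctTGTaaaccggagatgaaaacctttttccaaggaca
MT-TI: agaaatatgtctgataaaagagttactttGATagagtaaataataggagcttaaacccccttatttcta
MT-TM: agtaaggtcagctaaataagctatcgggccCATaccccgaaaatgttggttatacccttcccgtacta
MT-TS1: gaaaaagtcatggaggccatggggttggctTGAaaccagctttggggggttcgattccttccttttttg
MT-TQ: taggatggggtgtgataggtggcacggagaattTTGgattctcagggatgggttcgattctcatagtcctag
MT-TG: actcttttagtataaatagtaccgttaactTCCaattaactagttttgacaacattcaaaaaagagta
MT-TH: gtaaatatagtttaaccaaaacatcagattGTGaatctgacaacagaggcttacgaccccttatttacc

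MT-TT (MT:15888-15953, plus strand) carries threonine and begins at the base after MT-CYB. MT-TI (MT:4263-4331, plus strand) carries isoleucine and begins at the base after MT-ND1, and its last 3 bases lie under MT-TQ (MT:4329-4400, minus strand), which carries glutamine. MT-TM (MT:4402-4469, plus strand) carries methionine and ends at the base before MT-ND2. MT-TS1 (MT:7446-7514, minus strand) carries serine and adjoins the end of MT-CO1, which is read from the other strand. MT-TG (MT:9991-10058, plus strand) carries glycine and fills the gap between MT-CO3 and MT-ND3, and MT-TH (MT:12138-12206, plus strand) carries histidine and begins at the base after MT-ND4. Of the 7 listed tRNA genes, 6 lay within 5 bases of an mRNA or rRNA gene, as did 15 of all 22. None of the adjoining coding genes was listed.

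MT-ATP8, the gene listed in all 3 lines, is printed in the same way, with the bases it shares with MT-ATP6 in capitals. They leave 161 bases of its own.
MT-ATP8: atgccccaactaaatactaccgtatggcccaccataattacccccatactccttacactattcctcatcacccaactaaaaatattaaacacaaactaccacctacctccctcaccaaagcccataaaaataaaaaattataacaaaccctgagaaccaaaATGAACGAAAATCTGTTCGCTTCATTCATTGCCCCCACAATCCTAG

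In MDA-MB-231, where 33.3% of all listed genes were lower after transit, the 3 tRNAs were lower and the 2 mRNAs higher. In MCF-10A the 5 tRNAs were lower, as were 94.5% of all listed genes, and MT-ATP8 was higher. In LM2, where 46.4% were lower, MT-ATP8 and MT-RNR1 were higher. Within replicate numbers, where constriction and control libraries of the same number were set against each other, tRNAs were lower in 16 of 16 pairs, most of them from MCF-10A, and the mRNAs and the rRNA were higher in 9 of 10. The exception was MT-ATP8 in replicate 2 of LM2, whose constriction library has 2 in its title but 1 in its description. Of all genes listed as lower, 2533 of 2533 in MCF-10A and 124 of 127 in MDA-MB-231 had groups that did not overlap. Such genes are lower in both pairs, so that the 16 of 16 followed largely from the listing. No member that was listed in more than one line changed direction between lines, and 8 of the 10 genes were listed in 1 line only.

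**Figure D1:**
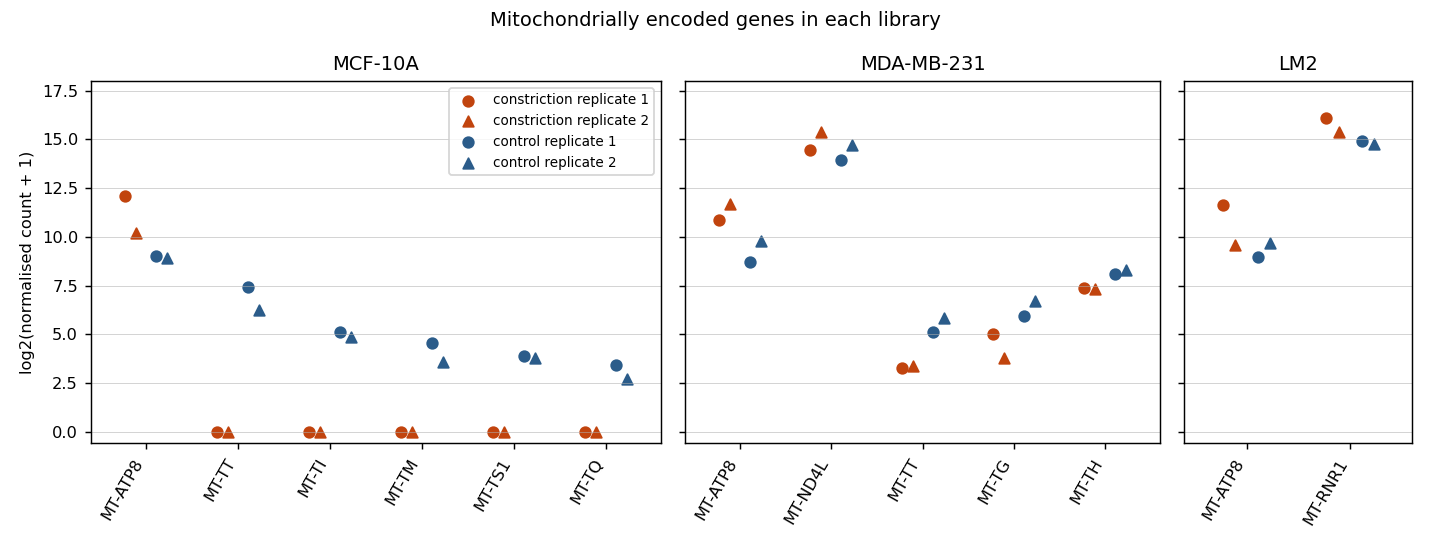
Level of each mitochondrially encoded gene, as log2(normalised count + 1), in the 4 libraries of each cell line, with constriction libraries in orange, control libraries in blue, replicate 1 as circles and replicate 2 as triangles. The 5 tRNAs of MCF-10A lie at 0 in both constriction libraries, while MT-ATP8 lies above both controls there.

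In MCF-10A cells, 5 mitochondrial tRNAs were listed and none had a read after transit. MT-TT had 0 and 0 reads in the constriction libraries and 173 and 96 in the control libraries, so that its mean normalised count was at least 36.5-fold lower, counted against 3 reads in each constriction library. This bound was 22.6-fold without control replicate 1. MT-TI had 34 and 36 reads in the controls, which puts it at least 9.18-fold lower after transit. MT-TM had 23 and 14 control reads and was at least 4.99-fold lower, or 3.29-fold without control replicate 1.

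The remaining 2 tRNAs, both encoded on the minus strand, were scarce in control cells as well. MT-TS1 had 14 and 16 control reads and was at least 3.92-fold lower. MT-TQ had 10 and 7 control reads, which allow a bound of 2.28-fold. For all 5 tRNAs the groups did not overlap, and this held for 94.5% of the listed MCF-10A genes in the lower direction. Likewise 2402 of the 2680 listed genes (89.6%) were at 0 reads in each constriction library, and the part that these libraries had in the tRNA values was not tested.

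The 5 tRNAs were called lower by the edgeR quasi-likelihood test with Benjamini-Hochberg adjustment, at an adjusted p of 0.0332 for MT-TT and 0.00468 for the other 4. Of all genes listed for this line, 91.3% were called lower, so a call in this direction was common to nearly all genes listed. With replicate numbers as a block, MT-TT was no longer called (adjusted p = 1, with 0.000691 to 1 over all alternatives), whereas MT-TI, MT-TM, MT-TS1 and MT-TQ were, at adjusted p-values from 0.00384 to 0.0297, beside 74.2% of all listed genes called lower. No tRNA was called once any 1 of the 4 libraries had been left out. The share of all listed genes called lower was then 0% and 0.0373% without constriction replicates 1 and 2, 20.7% without control replicate 1 and 0.149% without control replicate 2. In bulk RNA, a lower level in every cell and a loss of the RNA from some of the cells cannot be told apart.

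The median log2 difference of the 5 tRNAs was -4.15 on the log2(normalised count + 1) scale and -2.32 with each gene at its bound. Over all listed genes of MCF-10A it was -4.05, without bounds. Relative to their length, in FPKM, MT-TT was the highest of the 5 in control cells at 72.6 and 31.3. MT-TI followed with 13.6 and 11.2, above MT-TM with 9.36 and 4.43. The values of MT-TM overlapped those of MT-TS1, at 5.62 and 4.99. MT-TQ was the lowest, at 3.84 and 2.09.

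In MDA-MB-231 cells, 3 tRNAs were listed, and they kept reads in all libraries. MT-TT had 9 and 10 reads in the constriction libraries and 27 and 66 in the controls, or 8.79 and 9.24 against 34.3 and 56.8 normalised counts. Its mean was 5.05-fold lower after transit, a log2 difference of -2.22 ± 0.35 (SE, n = 2 libraries a group). MT-TG had 32 and 14 reads in the constriction libraries against 47 and 119, which gave normalised counts of 31.3 and 12.9 against 59.6 and 102. The 2 constriction libraries of MT-TG differed 2.42-fold from each other, and the mean was 3.66-fold lower after transit (log2 difference -1.83 ± 0.68). Leaving out 1 library moved this difference to between -2.56, without constriction replicate 1, and -1.35, without constriction replicate 2.

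MT-TH was the most abundant of the 3. Constriction libraries had 172 and 175 reads of it and control libraries 215 and 360, or 168 and 162 against 273 and 310 normalised counts. Its mean was 1.77-fold lower after transit, the smallest difference of the 3 tRNAs (log2 difference -0.82 ± 0.10), while its replicates lay closest together. The groups did not overlap for MT-TT, MT-TG or MT-TH, which was so for 32.5% of all genes listed in this line in the lower direction. Of the 127 genes with a lower mean after transit, it was so for 124. In FPKM, MT-TH stood at 83.7 and 97.4 in control cells, above MT-TG at 18.6 and 32.7 and MT-TT at 10.99 and 18.7, and the last 2 overlapped.

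None of the 3 tRNAs passed the edgeR quasi-likelihood test after Benjamini-Hochberg adjustment over 23976 genes. Their unadjusted p-values were 0.00779 for MT-TT, 0.0162 for MT-TG and 0.0149 for MT-TH, and the adjusted p was 1 for each. The replicate block lowered the adjusted p-values to 0.565, 0.402 and 0.344 in that order, still short of a call, and the lowest values over all alternatives were 0.195, 0.174 and 0.145. In the lower direction, 0% of the 381 listed genes were called without the block and 7.87% with it. With 2 libraries a group, an exact permutation test of one gene could not give a two-sided p below 0.333.

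MT-TT was the tRNA listed in 2 lines. Control cells of MCF-10A had more MT-TT than those of MDA-MB-231 in FPKM, but the lines were normalised in separate tables and their levels were not tested against each other. After transit MT-TT was at 0 reads in both MCF-10A libraries and at 9 and 10 reads in MDA-MB-231. The remaining 15 tRNA genes were listed in no table, and LM2 had no tRNA gene listed.

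**Figure D2:**
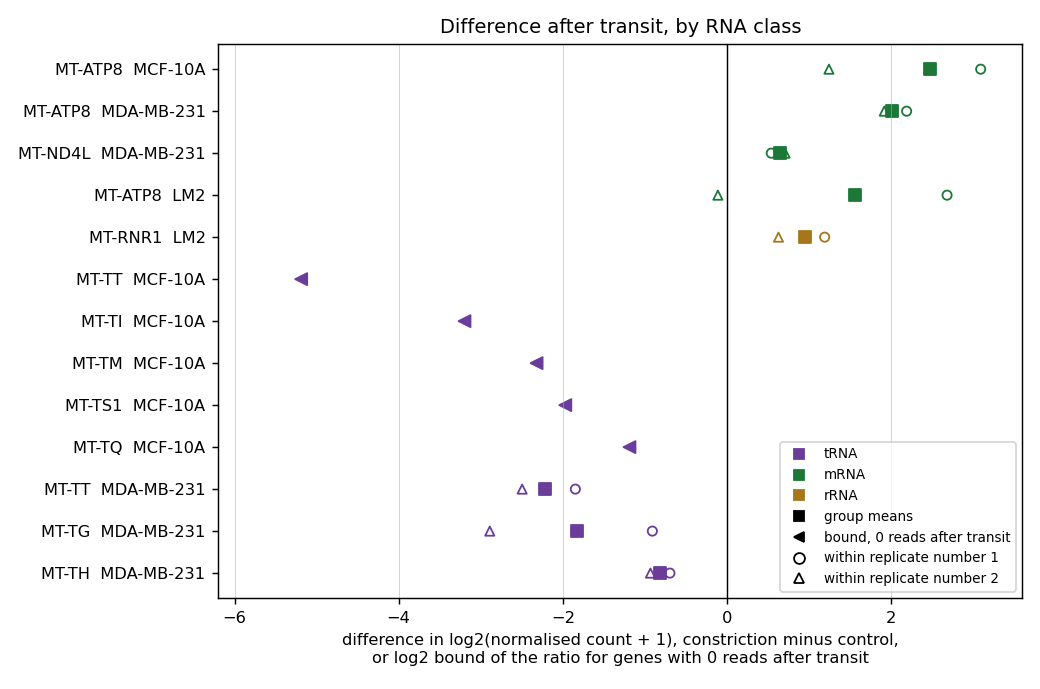
Difference after transit of each gene in each cell line, with squares for group means (constriction minus control, as log2 of the mean normalised count + 1), circles and triangles for the same within replicate numbers 1 and 2, and left-pointing triangles for the log2 bound of tRNAs with 0 reads after transit. The tRNAs (purple) lie to the left of 0, and the mRNAs (green) and the rRNA (brown) to the right, except MT-ATP8 within replicate number 2 of LM2.

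MT-ATP8 encodes subunit 8 of the ATP synthase, a small protein of the membrane part of the complex. It was the only mitochondrial gene listed in all 3 cell lines, each time higher after transit. In MCF-10A cells the constriction libraries had 3695 and 1120 reads of it and the controls 533 and 620, or 4454 and 1159 against 522 and 490 normalised counts. Both constriction libraries lay above both controls, which held for 2.28% of the genes listed in this line. It held for 41.5% of the 147 genes with a higher mean after transit. The mean was 5.55-fold higher (log2 difference 2.47 ± 0.85), with 8.54-fold in replicate 1 and 2.37-fold in replicate 2. Without constriction replicate 1 the log2 difference was 1.2, and without constriction replicate 2 it was 3.14.

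The edgeR quasi-likelihood test did not call MT-ATP8 in MCF-10A, where its p was 0.151 before and 1 after adjustment, and 0.149% of listed genes were called higher. With replicate numbers as a block its adjusted p was 0.00791, within 0.00483 to 1 over all alternatives, and it was then the 1 gene of 2680 called higher (0.0373%). This table had 147 genes with a higher mean after transit, and their ratio of constriction replicate 1 to replicate 2 had a median of 94.8 and quartiles of 9.76 and 432, on normalised counts plus 1. The ratio for MT-ATP8 was 3.84, and 14 of the 147 genes had a smaller one.

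In MDA-MB-231 cells, MT-ATP8 reads numbered 1939 and 3601 in the constriction libraries against 327 and 1024 in the controls. The normalised counts were 1895 and 3327 against 415 and 881, so that the groups did not overlap, as for 61.9% of the listed genes in the higher direction. Of the 254 genes with a higher mean after transit, this held for 92.9%. The mean was 4.03-fold higher (log2 difference 2.01 ± 0.65), and 4.57-fold and 3.78-fold within replicate numbers 1 and 2. Leaving out 1 library moved the log2 difference to between 1.55, without constriction replicate 2, and 2.65, without control replicate 2. Its edgeR quasi-likelihood p was 0.000719 before and 1 after adjustment, whereas 0.262% of listed genes were called higher. With the replicate block, which leaves 1 residual degree of freedom per gene, MT-ATP8 was called at an adjusted p of 1.32e-38, in a fit that called 14.7% of the listed genes higher. Over all alternatives its adjusted p ran from that value to 1.

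In LM2 cells, the higher mean of MT-ATP8 rested on 1 library. The constriction libraries had 2732 and 813 reads and the controls 558 and 830, or 3161 and 775 against 492 and 838 normalised counts. Constriction replicate 2 lay between the controls. The mean was 2.96-fold higher (log2 difference 1.56 ± 0.95), but 6.43-fold in replicate 1 and 0.926-fold in replicate 2, and the log2 difference was 0.22 without constriction replicate 1. The pairing followed the library titles, and constriction replicate 2 has the number 1 in its description. MT-ATP8 was not called in LM2, with an edgeR quasi-likelihood p of 0.114 before and 1 after adjustment.

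Control cells of the 3 lines had MT-ATP8 at overlapping levels per length, with 71.3 and 64.5 FPKM in MCF-10A, 42.4 and 92.3 in MDA-MB-231 and 52.4 and 84.7 in LM2. After transit the values were 595 and 152 FPKM in MCF-10A, 198 and 350 in MDA-MB-231 and 349 and 77.4 in LM2. The constriction library with the lowest value, LM2 replicate 2, was the only one of the 6 within the range of the 6 control libraries. The higher of the constriction replicates was number 1 in MCF-10A and LM2 and number 2 in MDA-MB-231.

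**Figure D3:**
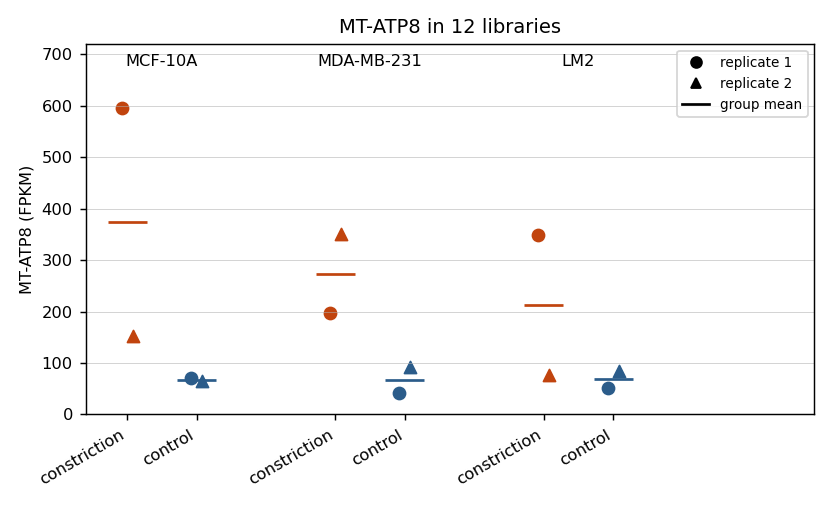
MT-ATP8 in FPKM in the constriction (orange) and control (blue) libraries of each cell line, with replicate 1 as circles, replicate 2 as triangles and bars at the group means. Controls lie between 42.4 and 92.3 FPKM, and LM2 constriction replicate 2, at 77.4, lies among them.

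Copies of mitochondrial genes in nuclear chromosomes could share reads with MT-ATP8. Its closest annotated copy, the pseudogene MTATP8P1 (1:633535-633741, GRCh38), aligned over all 207 bases with 5 differing positions, an identity of 97.6%. Neither this copy nor any other annotated match of a member was listed. Among 408 annotated symbols of nuclear copies, MTCO1P12 was listed, in MDA-MB-231 only. This copy of MT-CO1 lies near MTATP8P1 (1:631074-632616) and had 1667 and 2786 reads in the constriction libraries against 623 and 1870 in the controls (log2 difference 0.81 ± 0.59, edgeR quasi-likelihood adjusted p = 1). The methods do not describe how reads with several matches were treated, and their part in MT-ATP8 was not tested.

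MT-ND4L, a membrane subunit of complex I, was listed in MDA-MB-231 only and was the most abundant member there. Its reads numbered 23471 and 47032 in the constriction libraries and 12440 and 30936 in the controls. In normalised counts, constriction replicate 1 at 22934 lay below control replicate 2 at 26608, with 43448 and 15783 in the other libraries, so the groups overlapped. The mean was 1.57-fold higher (log2 difference 0.65 ± 0.58), and replicate numbers 1 and 2 gave 1.45-fold and 1.63-fold. The log2 difference was 0.11 without constriction replicate 2 and 1.07 without control replicate 2. By edgeR's quasi-likelihood test its p was 0.0901 before and 1 after adjustment. Under the replicate block its adjusted p was 5.76e-12, the lowest of all alternatives, in the fit that called 14.7% of listed genes higher, and the highest was 1.

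MT-RNR1 (MT:648-1601, plus strand), the 12S rRNA of the small mitochondrial ribosomal subunit, was listed in LM2 only and is 954 bases long. The constriction libraries had 61723 and 44878 reads of it and the controls 35510 and 27459, or 71408 and 42808 against 31297 and 27712 normalised counts. Both constriction libraries lay above both controls, as for 42.3% of the genes listed in LM2 and 78.8% of the 52 with a higher mean after transit. The mean was 1.94-fold higher (log2 difference 0.95 ± 0.37), and the log2 difference was 0.54 without constriction replicate 1. The edgeR quasi-likelihood p was 0.110 and the adjusted p was 1.

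Together, edgeR called 0 of the 5 members in MDA-MB-231, of which 4 had an unadjusted p under 0.05, as had 94% of all genes listed for this line. DESeq2 called 1 member, beside 2.36% of the listed genes, and limma 0, beside 0%. In LM2 edgeR called 0 of the 2 members, 0 of them with an unadjusted p under 0.05, which 41.2% of the listed genes had. DESeq2 and limma called neither member there, nor any other listed gene (0% each). In LM2, 0% of all 97 listed genes were called in either direction without the replicate block, and with it 12.4% were called higher and 16.5% lower, neither member among them. For MCF-10A, 6 of the 37 annotated mitochondrial genes (16.2%) were listed, beside 13.9% of the 19236 genes whose p-values were adjusted together. For MDA-MB-231 it was 5 of 37 (13.5%), beside 1.59% of 23976 adjusted genes. The LM2 table held 2 of 37 (5.41%), beside 0.321% of 30209 adjusted genes. How many of the 37 were among the adjusted genes is not known. The shares within a line therefore have unlike denominators and were not tested against each other.

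The reads of the listed tRNAs were also divided by those of MT-ATP8 within each library, which needs no size factor. As the tRNAs were listed for lower and MT-ATP8 for higher values in these libraries, a lower ratio after transit followed from the listing and is given as a description only. In MDA-MB-231 cells there were 110 and 55.3 reads of the 3 tRNAs per 1000 MT-ATP8 reads after transit, against 884 and 532 in the controls. Against MT-ND4L the figures were 9.08 and 4.23 per 1000 after transit and 23.2 and 17.6 in control cells. In MCF-10A cells the 5 tRNAs had 477 and 273 reads per 1000 MT-ATP8 reads in control cells and 0 reads in the constriction libraries, where 3 reads would have been 0.812 and 2.68 per 1000. The 2 mRNAs of MDA-MB-231, both higher after transit, differed in this ratio as well, with 12.1 and 13.1 MT-ND4L reads per MT-ATP8 read after transit against 38.0 and 30.2 in control cells.

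**Figure D4:**
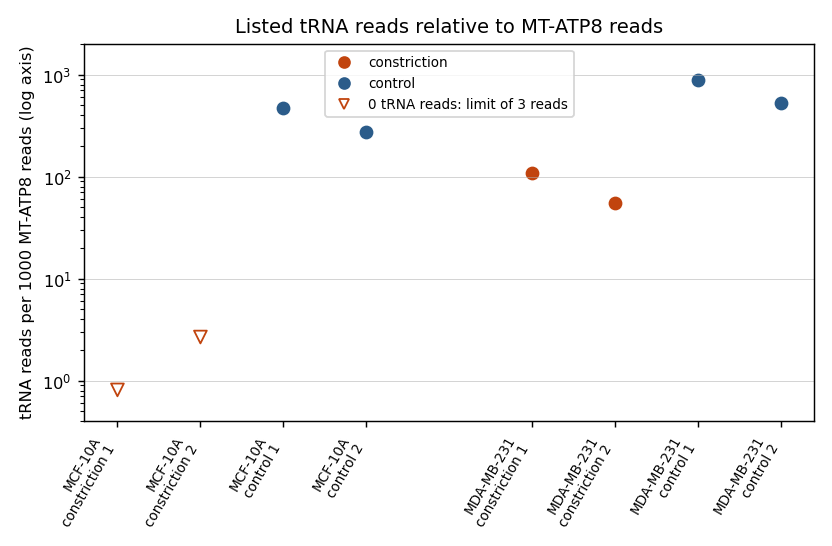
Reads of all listed mitochondrial tRNAs per 1000 reads of MT-ATP8 in each library of MCF-10A (5 tRNAs) and MDA-MB-231 (3 tRNAs), on a log axis, with filled circles for values above 0 and open triangles for the limit that 3 reads would give where no tRNA read was found. Constriction libraries are in orange and controls in blue, and the 2 orange circles of MDA-MB-231 stand at 110 and 55.3.

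Other RNAs that are short or carry no poly(A) tail were listed as well, and no test set them against the tRNAs. Among listed genes of at most 100 bases outside the mitochondrial chromosome, 25 of 29 were lower after transit in MCF-10A, where 94.5% of all listed genes were lower. In MDA-MB-231 2 of 6 were lower, beside 33.3% of all listed genes, and in LM2 1 of 3, beside 46.4%. A wider list of 7SL, small nuclear, small nucleolar, histone and nuclear-retained RNAs had 32 of 36 listed genes lower in MCF-10A, 2 of 9 in MDA-MB-231 and 1 of 8 in LM2. One of these was RN7SL2, the RNA of the signal recognition particle. In MDA-MB-231 its reads numbered 3533 and 2662 in the constriction libraries against 180 and 190, and there it was the 1 gene called (edgeR quasi-likelihood adjusted p = 0.00845). In MCF-10A and LM2 it had 1318 and 51 reads against 96 and 62, and 1444 and 151 against 228 and 79. The part of these RNAs in the mitochondrial values was not tested.

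None of the 34 annotated factors of mitochondrial transcription, RNA processing and tRNA maturation was listed in any line, among them ELAC2, TRMT10C, TRNT1 and MTPAP, nor was any of 17 mitochondrial aminoacyl-tRNA synthetases. Symbols of the nuclear-encoded respiratory chain numbered 7 for MCF-10A, 1 for MDA-MB-231 and 0 for LM2. Those of MCF-10A were 2.46% of 285 annotated symbols. All were at 0 reads after transit, as were 89.6% of the genes listed for this line, and all were called lower by edgeR, as were 91.3%. Most were not subunits. NDUFA6-DT and NDUFB2-AS1 are divergent or antisense transcripts, UQCRBP1 and SDHAP3 are pseudogenes, and COX20 is an assembly factor of complex IV. NDUFA7, a subunit of complex I, had 15 and 22 control reads, and its locus overlaps RPS28. The protein-coding gene NDUFA4L2 had 4 and 17 control reads, and its locus overlaps SHMT2.

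Of 155 annotated mitochondrial ribosomal protein symbols, 3 (1.94%) were listed in MCF-10A and none in the cancer lines. The pseudogenes MRPS31P5 and MRPS31P4 were at 0 reads after transit, as were 89.6% of the genes listed for MCF-10A. Both were called lower by edgeR, as were 91.3%. MRPL46, a protein of the large mitochondrial ribosomal subunit, had 590 and 507 reads in the constriction libraries against 192 and 337 (log2 difference 1.44 ± 0.33) and was not called (edgeR quasi-likelihood adjusted p = 1).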

How the data were processed

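Poly(A)-enriched RNA was sequenced from 12 samples, 2 of constriction and 2 of control cells for each of 3 cell lines. Per the labels' processing notes, the authors filtered reads with fastp, aligned them to GRCh38 with HISAT2 (2.0.5) and counted them per gene with featureCounts (1.5.0-p3), which gave the deposited counts. The deposited normalised counts (signal) are these counts divided by one DESeq2 (1.20.0) size factor per library within each cell line, and the authors computed FPKM from counts and gene lengths. The deposited p-values are those of the authors' comparison and were used only to recover the number of genes adjusted over, namely 19236 for MCF-10A, 23976 for MDA-MB-231 and 30209 for LM2. The deposited fold changes were not used. Lists of enriched terms were not used either.

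Counts were tested within each line with the quasi-likelihood test of edgeR (4.0.16, R 4.3.3), with the authors' size factors, which ranged from 0.788 to 1.27. Genes outside the tables were taken at a p-value of 1, and a gene was called at a two-sided Benjamini-Hochberg adjusted p under 0.05. Reported log2 differences used a pseudocount of 1, with a delta-method SE. Where constriction libraries had 0 reads, the ratio was bounded against 3 reads in each library, or 3.11 to 3.62 normalised counts, which covers counting error only. Alternatives were limma (3.58.1) with pseudocounts of 1 and 10, DESeq2 (1.42.0), TMM factors of the listed genes, total reads, a minimum mean of 10 normalised counts, a replicate block and each library left out. The edgeR script was tested on simulated data.

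The named genes were all genes on chromosome MT and listed genes of the lists described, and the members and lists were chosen with earlier results of these data known. Sequences came from GENCODE release 29 transcripts. Anticodons were located as the known anticodon within a loop closed by at least 4 of 5 paired positions. Nuclear copies were sought among annotated transcripts with BLAST (2.17.0).

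Because the study tabulates the control and constriction cells of a replicate experiment side by side, libraries with the same replicate number were taken as pairs. This pairing entered only the differences within replicate numbers and the replicate block, and the main test had no block. Deviations of same-numbered libraries from their group means correlated over listed genes at -0.043 (MCF-10A), 0.083 (MDA-MB-231) and -0.032 (LM2), and at -0.11, 0.16 and 0.048 over genes averaging at least 10 normalised counts. The title of LM2 constriction replicate 2 gives it the number 2, its description the number 1. The methods call the 2 libraries of a group biological replicates, from a repeat of the experiment, and the p-values measure the spread between them.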

Additional observations from a re-analysis of the deposited data

How the results depend on the processing

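No member changed direction under any alternative. Of 146 alternative values of single genes, 99 stayed on their side of the threshold, 37 lost a call and 10 gained one. The number called over all genes tested stands in parentheses after each. The 5 calls in MCF-10A (2451 of 2680 listed genes) became 0 with limma at a pseudocount of 10 (0 of 2680), 0 with total reads as the scaling (0 of 2680), and 2 (MT-TI and MT-ATP8) with a minimum mean of 10 normalised counts (895 of 1209), which leaves MT-TM, MT-TS1 and MT-TQ untested. Without one library they were 0 to 1, the 1 being MT-ATP8 without control replicate 1 (557 of 2680), and 0 without control replicate 2 (4 of 2680), constriction replicate 1 (0 of 2680) or constriction replicate 2 (69 of 2680). Crossing the replicate numbers, chosen after seeing the data, gave 0 (5 of 2680). The replicate block gave 5 calls, with MT-ATP8 in place of MT-TT (1989 of 2680), and DESeq2 gave 6 (2493 of 2680). In MDA-MB-231, 0 calls (1 of 381) became 1 with DESeq2 (9 of 381), 1 with TMM factors (15 of 381), MT-ATP8 each time, and 2 with the replicate block, MT-ATP8 and MT-ND4L (86 of 381). Leaving out a library there gave 0 to 1, MT-ATP8 without control replicate 1 (7 of 381) or without control replicate 2 (8 of 381). No alternative called a member in LM2, although the replicate block called 12 other listed genes higher and 16 lower. The median tRNA difference in MCF-10A was -1.42 with a pseudocount of 10. The mRNA median in MDA-MB-231, 1.33, was 0.92 with TMM factors and 0.83 to 1.86 without one library. With TMM factors the fitted median of all listed genes moved from -6.96 to -8.86 in MCF-10A, where most genes are at 0 reads after transit and the fitted value depends on the prior count, from 1.08 to 0.67 in MDA-MB-231 and from 1.21 to 1.35 in LM2. The cause of these changes was not tested. Tables that hold only listed genes limit TMM, whose factors for MCF-10A rest on libraries with most genes at 0. LM2 had no tRNA gene, so no tRNA median could be given.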

Other observations

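COX20, an assembly factor of complex IV encoded in the nucleus, was listed in 2 lines with opposite directions. In MCF-10A its reads numbered 0 and 0 in the constriction libraries against 33 and 40, and 89.6% of the genes listed for MCF-10A were at 0 reads there. In MDA-MB-231 they numbered 68 and 121 against 26 and 45 (log2 difference 1.29 ± 0.38), and edgeR did not call COX20 in that line. The difference between the lines was not tested, and the gene overlaps HNRNPU in the annotation. In LM2 there were 22.6 and 55.2 MT-RNR1 reads per MT-ATP8 read after transit and 63.6 and 33.1 in control cells, so that this ratio overlapped between the groups.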
